A study of Homo sapiens with 6 samples.

Results

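The SLC25 family and the uncoupling proteins UCP1, UCP2 and UCP3 were followed in the B cell line DEV, which was derived from an NLPHL (nodular lymphocyte predominant Hodgkin lymphoma). Members were all genes with a probe set of 1 single platform symbol that starts with SLC25A or is UCP1, UCP2 or UCP3, without pseudogenes, and where a gene had several probe sets the one with the highest mean was taken. This gave 50 genes, 49 carrier genes and 1 antisense RNA gene (SLC25A5-AS1), out of 18404 genes with such a probe set. The arrays held 32321 probe sets in all. DEV cells were profiled on Affymetrix Gene 1.0 arrays after monoculture, after coculture with T cells or after coculture with monocytes, with 2 arrays in each of the 3 groups, to ask how the transcription of lymphoma cells changes beside the blood cells that surround them in tissue.

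All groups were the same DEV line without any engineered allele or drug. The T cells (CD3-positive) and the monocytes (CD14-positive) came from blood of healthy donors, and 10 blood cells were seeded per DEV cell. At day 5 the DEV cells of the cocultures were purified by magnetic separation (MACS), a step described for the cocultures only, so that bead handling cannot be told apart from the presence of blood cells. From each sample 40 ng of RNA were amplified. The model is 1 cell line, the arrays were chosen by the study as representative of more experiments, and the sources used here do not tie an array to a donor. The p-values therefore measure only the spread between these arrays.

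SLC25 proteins are nuclear-encoded carriers, most of which sit in the inner membrane of mitochondria and exchange metabolites, nucleotides, phosphate and cofactors between cytosol and matrix. They are made on cytosolic ribosomes, pass the outer membrane through the TOM complex, are escorted by the small TIM chaperones and are inserted by the TIM22 complex. UCP1 lets protons leak back into the matrix of brown fat cells, whereas UCP2 is widespread, is well known from immune cells and has been linked to the export of metabolites and to the control of oxidant production.

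The whole series needs few words. Array medians lay between 5.64 and 5.73 on the log2 scale, on which all levels and differences are given. All 7 measured B cell markers were above the median of all probe sets on all 6 arrays. Of 12 T cell markers, 4 were above it on all arrays and 6 were below it on all arrays, and the mean level of the list lay between 5.74 and 5.87 on each array. Of 9 monocyte markers, 3 were above and 3 were below the array median on all arrays. The mean level of the monocyte list was 6.39 in monocyte coculture replicate 1 and between 5.72 and 5.84 on the other arrays. In that array LYZ (lysozyme) had a level of 8.42, against 4.98 to 5.09 on the others. CD14 had a level of 6.15, against 5.21 to 5.42, and S100A8 had a level of 5.54, against 4.94 to 5.25. The other 6 monocyte markers lay within or level with the range of the other arrays, so that LYZ made up most of the higher list mean. The part of these transcripts in the carrier values was not tested, and the 8 largest carrier differences in each direction are given below also without this array. In such bulk RNA, fewer cells of a type and less RNA per cell cannot be told apart.

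Among the 49 carriers, 31 were above the median of all probe sets on all 6 arrays, 8 were below it on all arrays and 10 changed sides. The 8 dim carriers were UCP1, SLC25A2, SLC25A18, SLC25A21, SLC25A31, SLC25A41, SLC25A45 and SLC25A52, and small differences in these say little. Replicates lay close together, with a median difference between the arrays of a pair of 0.094 in monoculture, 0.12 with T cells and 0.12 with monocytes. The widest pairs were SLC25A27 alone (0.40), SLC25A36 with T cells (0.83) and SLC25A38 with monocytes (0.63).

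When both cocultures were compared with monoculture, 1 of 49 carriers passed an adjusted p of 0.05 in limma, namely UCP2, which fell, and 0 carriers rose. Over all probe sets, 0.248% were called higher and 0.47% lower. At an unadjusted p under 0.05, 9 carriers (18.4%) were higher and 11 (22.4%) were lower, beside 7.82% and 13.6% of all genes at the same limit. The 4 coculture arrays were all above both monoculture arrays for 9 carriers (18.4%) and all below them for 12 (24.5%), against 15.6% and 17.5% of all genes, and they overlapped for 28. The median difference over the carriers was 0.024, beside 0.015 over all genes, and single carriers ranged from -1.37 to 0.79. The family median thus lay near that of all genes, with carriers on both sides of 0.

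**Figure D1:**
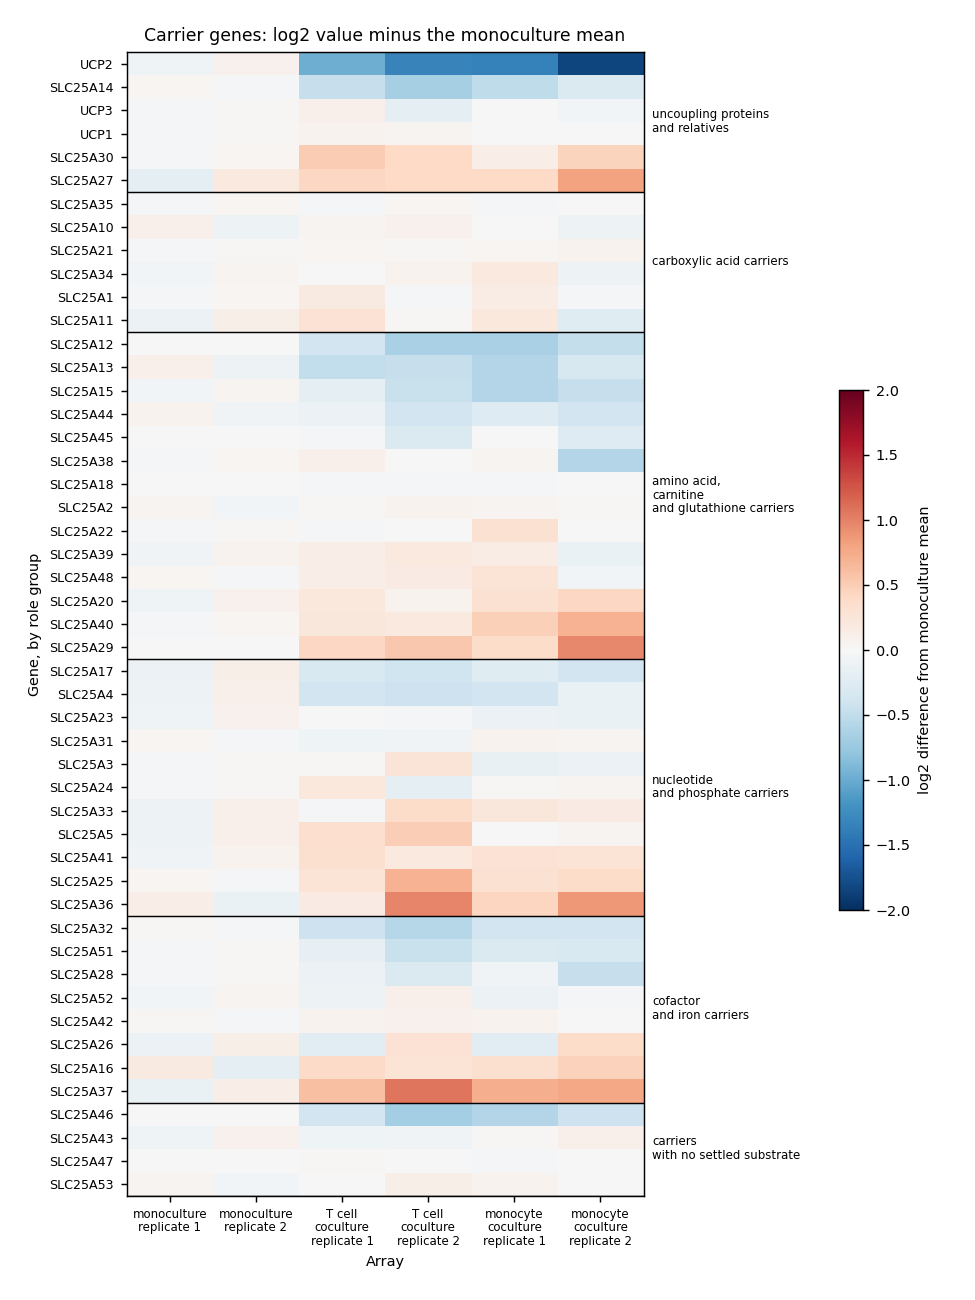
Level of each of the 49 carrier genes on each array (columns) as log2 difference from the monoculture mean of that gene (color scale from -2 to 2), grouped by role. UCP2 is the darkest blue row on all 4 coculture arrays, SLC25A37 is red on all 4, and the carboxylic acid carriers remain pale.

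**Figure D2:**
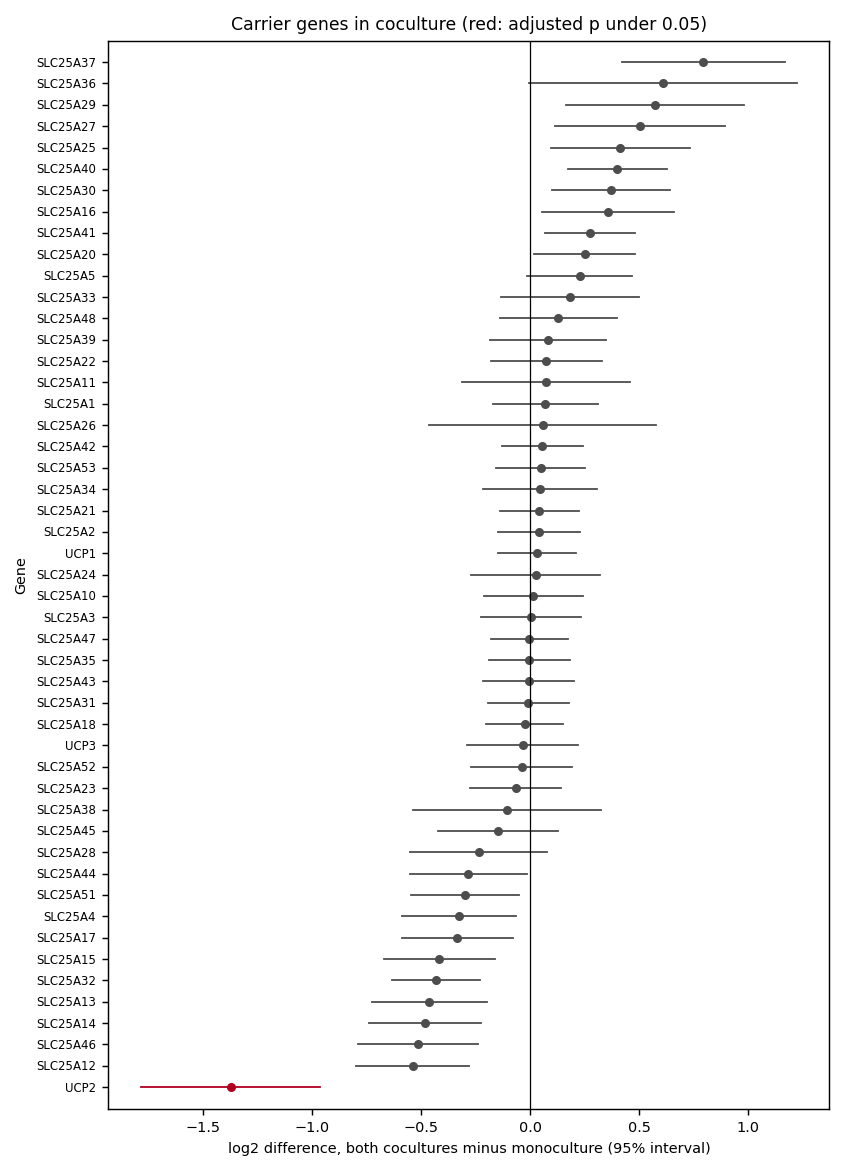
Log2 difference (both cocultures minus monoculture, x axis) with its 95% interval for each of the 49 carriers, ordered by size. UCP2 at -1.37 lies apart from all others and is the only carrier past an adjusted p of 0.05 (red).

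UCP2 was the carrier with the largest difference in either direction. Its level was 9.78 and 9.95 in monoculture, 8.88 and 8.53 with T cells, and 8.51 and 8.03 with monocytes. Thus, all 4 coculture arrays were below both monoculture arrays by more than its replicates differed from each other. Group means were 9.86 ± 0.12 (SD, n = 2) in monoculture, 8.71 ± 0.25 (SD, n = 2) with T cells and 8.27 ± 0.33 (SD, n = 2) with monocytes. UCP2 fell by 1.37 ± 0.17 (SE) over both cocultures, 2.59-fold, with an adjusted p of 0.0440 in limma.

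Against monoculture, UCP2 was 3.02-fold lower with monocytes (-1.59 ± 0.19, 95% interval -2.07 to -1.12, adjusted p = 0.0455 in limma). With T cells the difference was -1.16 ± 0.19 (95% interval -1.63 to -0.68) and did not pass the adjustment (adjusted p = 0.113). The arrays with monocytes were both below those with T cells, but the difference between the cocultures of -0.44 ± 0.19 had an adjusted p of 0.690 and an interval from -0.91 to 0.04. The call for both cocultures was lost when monoculture replicate 1 (-1.46, adjusted p = 0.241), monoculture replicate 2 (-1.29, 0.304), monocyte coculture replicate 1 (-1.49, 0.123) or monocyte coculture replicate 2 (-1.26, 0.147) was left out, and the size changed little. The call with monocytes alone was lost after quantile normalization (-1.41, adjusted p = 0.0537), with an intensity trend (0.0634), and without monoculture replicate 1 (-1.68, 0.226), monoculture replicate 2 (-1.51, 0.258), monocyte coculture replicate 1 (0.155) or monocyte coculture replicate 2 (-1.36, 0.237). Without monocyte coculture replicate 1, the array with the high LYZ value, UCP2 differed by -1.83 from monoculture in the remaining monocyte coculture array. Over both cocultures without this array, the 8 carriers with the largest differences on the higher side ran from 0.39 (SLC25A16) to 0.81 (SLC25A37), and the 7 on the lower side beside UCP2 ran from -0.50 (SLC25A12) to -0.37 (SLC25A17), so that none of them changed its direction.

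UCP2 has a direct neighbor of the same family, since UCP2 (chr11:73974672-73983202) and UCP3 (chr11:74000277-74009085) are separated by 17074 bases on the minus strand of chromosome 11 in RefSeq on GRCh38.p14. UCP3, best known from skeletal muscle, had levels of 5.58 and 5.62 in monoculture, 5.71 and 5.41 with T cells, and 5.61 and 5.54 with monocytes. The groups overlapped and UCP3 differed by -0.04 ± 0.10. UCP3 was below the array median on 5 of 6 arrays, so that a fall would be hard to see. UCP1 was below the array median on all arrays, from 4.97 to 5.07, and differed by 0.03 ± 0.07. The promoters of the neighboring pair, from 250 bases before to 50 bases after the start, are shown because 1 gene of the pair fell and the other did not pass the test (UCP2 chr11:73983153-73983452, UCP3 chr11:74009036-74009335, both minus strand, RefSeq, GRCh38.p14, written 5′ to 3′ along the gene). Neither holds any of the 3 motifs searched below, so that neither has capitals.
UCP2: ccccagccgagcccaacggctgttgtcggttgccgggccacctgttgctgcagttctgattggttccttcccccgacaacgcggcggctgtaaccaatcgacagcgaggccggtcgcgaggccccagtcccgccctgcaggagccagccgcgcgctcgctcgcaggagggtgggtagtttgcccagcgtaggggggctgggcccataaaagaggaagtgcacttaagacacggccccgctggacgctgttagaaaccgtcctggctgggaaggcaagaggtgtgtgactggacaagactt
UCP3: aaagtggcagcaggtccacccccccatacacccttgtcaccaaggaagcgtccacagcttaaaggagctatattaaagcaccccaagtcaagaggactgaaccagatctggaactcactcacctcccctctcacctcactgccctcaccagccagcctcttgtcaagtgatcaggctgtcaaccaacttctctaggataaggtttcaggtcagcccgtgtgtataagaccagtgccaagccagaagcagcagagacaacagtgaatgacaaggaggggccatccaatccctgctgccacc

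The 3 relatives of the uncoupling proteins lay on different sides. SLC25A14 (UCP5), a carrier abundant in brain, had a level of 6.90 and 6.83 in monoculture, 6.40 and 6.20 with T cells, and 6.36 and 6.58 with monocytes. All cocultures were lower, with a difference of -0.48 ± 0.11 (adjusted p = 0.0829 in limma). SLC25A27 (UCP4) was measured at 5.13 and 5.53 in monoculture, 5.75 and 5.73 with T cells, and 5.73 and 6.13 with monocytes. Here all cocultures were higher (0.50 ± 0.16, adjusted p = 0.168), but the monoculture pair was the widest of all carriers. SLC25A30, also known as kidney mitochondrial carrier protein, showed levels of 6.72 and 6.78 in monoculture, 7.27 and 7.15 with T cells, and 6.88 and 7.19 with monocytes (0.37 ± 0.11, adjusted p = 0.152). Of the 6 uncoupling proteins and relatives, 1 was called lower, beside 0.47% of all probe sets. At an unadjusted p under 0.05 2 were higher and 2 were lower (7.82% and 13.6% of all genes).

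**Figure D3:**
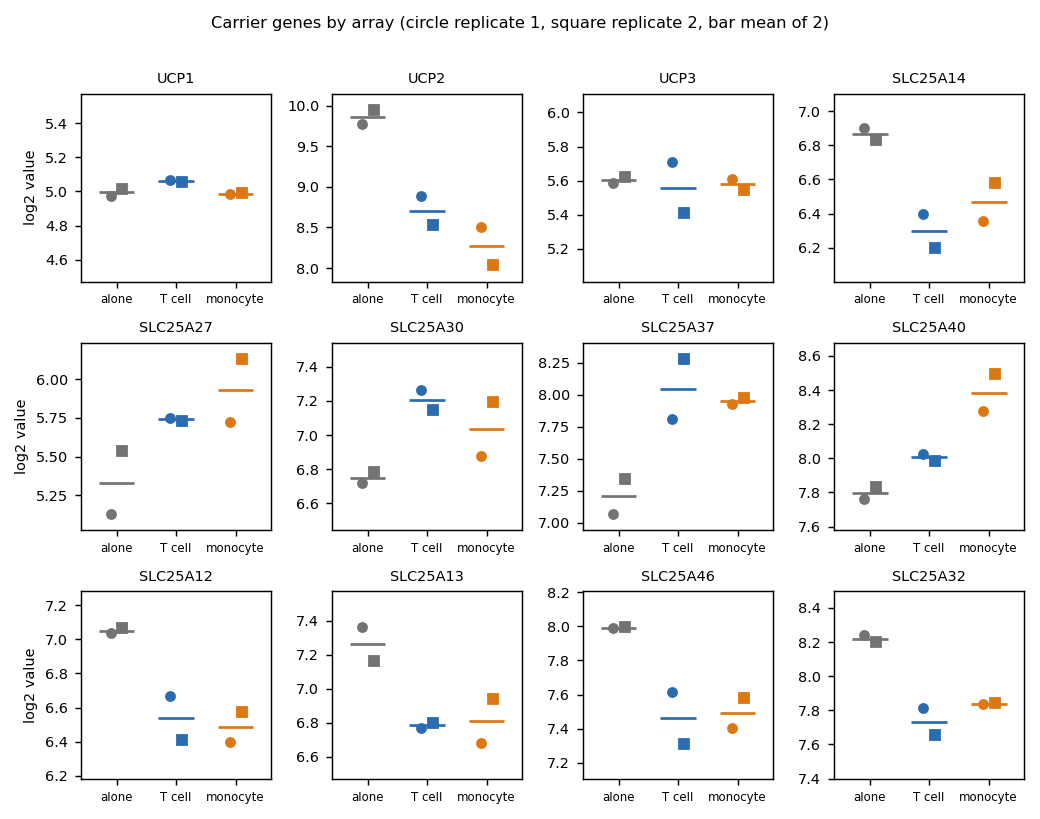
Log2 level (y axis, own scale per gene) of 12 carriers on each array, for DEV cells cultured alone, with T cells or with monocytes (circle replicate 1, square replicate 2, bar mean of 2). UCP2, SLC25A14, SLC25A12, SLC25A13, SLC25A46 and SLC25A32 have all coculture arrays below monoculture, SLC25A27, SLC25A30, SLC25A37 and SLC25A40 have them above, and UCP1 and UCP3 overlap.

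Carriers of carboxylic acids, which link the citric acid cycle with the cytosol, varied least. In this group of 6, differences ranged from -0.0048 to 0.074, and 0 were called or had an unadjusted p under 0.05 in limma. At the unadjusted limit 7.82% of all genes were higher and 13.6% lower. SLC25A1, the citrate carrier that feeds cytosolic fatty acid synthesis, had levels from 6.67 to 6.88 and differed by 0.07 ± 0.10. SLC25A11, the carrier of 2-oxoglutarate and malate, had levels from 6.74 to 7.27 and differed by 0.07 ± 0.16. Monocyte coculture replicate 2 had its lowest value and T cell coculture replicate 1 its highest, so that the groups overlapped. The remaining 4 (SLC25A10, SLC25A21, SLC25A34 and SLC25A35) overlapped as well. Of these, SLC25A21 was below the array median on all arrays and SLC25A10 on 3. SLC25A34 and SLC25A35, with means of 5.97 and 5.93, were only slightly above it, so that small differences in these 4 say little.

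Carriers of amino acids, carnitine and glutathione were split. Of 14, 0 were called in limma, 3 were higher and 4 were lower at an unadjusted p under 0.05 (7.82% and 13.6% of all genes). On the lower side stood both aspartate/glutamate carriers, which move reducing equivalents into the matrix as part of the malate-aspartate shuttle. SLC25A12 (aralar) had levels of 7.04 and 7.06 in monoculture, 6.67 and 6.41 with T cells, and 6.40 and 6.57 with monocytes (-0.54 ± 0.11, adjusted p = 0.0713). Its close relative SLC25A13 (citrin) had levels of 7.36 and 7.16 in monoculture, 6.77 and 6.80 with T cells, and 6.68 and 6.94 with monocytes (-0.46 ± 0.11, adjusted p = 0.0949). In both genes all coculture arrays were below both monoculture arrays. SLC25A15, the ornithine carrier of the urea cycle, was measured at 5.98 and 6.11 in monoculture, 5.86 and 5.61 with T cells, and 5.46 and 5.58 with monocytes (-0.42 ± 0.10, adjusted p = 0.106). It was thus also lower on all cocultures, though close to the array median. SLC25A44, a carrier of branched-chain amino acids, differed by -0.28 ± 0.11.

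On the higher side of the same group were SLC25A29, SLC25A40 and SLC25A20. SLC25A29, which transports basic amino acids such as arginine and lysine, had levels of 6.14 and 6.14 in monoculture, 6.56 and 6.67 with T cells, and 6.51 and 7.11 with monocytes (0.57 ± 0.17, adjusted p = 0.144 in limma). The cocultures were all above monoculture and monocyte coculture replicate 2 was the highest. SLC25A40, which together with SLC25A39 brings glutathione into mitochondria, had levels of 7.76 and 7.83 in monoculture, 8.03 and 7.98 with T cells, and 8.27 and 8.49 with monocytes. The 3 groups formed 3 steps without overlap, and the difference over both cocultures was 0.40 ± 0.09 (adjusted p = 0.0927). With monocytes alone it was 0.59 ± 0.11 (adjusted p = 0.0683). SLC25A39 differed by 0.08 ± 0.11 and its groups overlapped. SLC25A20, the carnitine/acylcarnitine carrier of fatty acid oxidation, differed by 0.25 ± 0.10, and SLC25A38, a glycine carrier needed for heme synthesis, by -0.11 ± 0.18. For SLC25A38, monocyte coculture replicate 2 was low (7.99) while all other arrays lay between 8.53 and 8.69.

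Of 11 measured carriers of nucleotides and phosphate, 0 were called in limma. At an unadjusted p under 0.05 2 were higher and 2 were lower (7.82% and 13.6% of all genes). SLC25A6, a twelfth gene of this list, had no probe set of its own and was not analysed here. SLC25A36, a pyrimidine nucleotide carrier, had levels of 7.52 and 7.26 in monoculture, 7.55 and 8.37 with T cells, and 7.81 and 8.25 with monocytes. The cocultures were all higher, but T cell coculture replicate 1 was close to monoculture, so that the difference of 0.61 ± 0.25 had a wide error (adjusted p = 0.270). SLC25A25, a calcium-regulated carrier of ATP-magnesium and phosphate, had levels of 5.68 and 5.59 in monoculture, 5.92 and 6.34 with T cells, and 5.94 and 6.01 with monocytes (0.41 ± 0.13, adjusted p = 0.165). SLC25A33, the other pyrimidine nucleotide carrier, differed by 0.18 ± 0.13 with the probe set used. A second, dimmer probe set of SLC25A33 differed by 0.44 ± 0.13 (adjusted p = 0.156), and here all coculture arrays were above monoculture.

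The ADP/ATP carriers, which exchange matrix ATP for cytosolic ADP, did not run in parallel. SLC25A4 (ANT1) had levels of 7.36 and 7.55 in monoculture, 7.07 and 7.04 with T cells, and 7.07 and 7.32 with monocytes (-0.33 ± 0.11, adjusted p = 0.179 in limma). SLC25A5 (ANT2), known from dividing cells, had levels of 11.04 and 11.26 in monoculture, 11.50 and 11.65 with T cells, and 11.16 and 11.21 with monocytes. Here only the T cell cocultures were above monoculture (0.42 ± 0.11, adjusted p = 0.177), while the difference with monocytes was 0.03 ± 0.11. The direct comparison of monocyte with T cell coculture gave -0.39 ± 0.11 (unadjusted p = 0.014, adjusted p = 0.538). SLC25A5-AS1, the antisense RNA gene beside SLC25A5, had levels of 5.86 and 6.26 in monoculture, 6.39 and 6.36 with T cells, and 6.10 and 5.97 with monocytes, and differed by 0.14 ± 0.13 over both. The ADP/ATP carriers are very similar in sequence, so that signal of one may come from another. SLC25A3, the phosphate carrier that supplies ATP synthase, ranged from 10.55 to 10.96 and differed by 0.0039 ± 0.094. SLC25A17, a peroxisomal carrier of cofactors such as coenzyme A, had levels of 7.40 and 7.64 in monoculture, 7.21 and 7.11 with T cells, and 7.28 and 7.13 with monocytes (-0.33 ± 0.10, adjusted p = 0.161).

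Among 8 measured carriers of cofactors and iron, 0 were called in limma. At an unadjusted p under 0.05 2 were higher and 2 were lower (7.82% and 13.6% of all genes). SLC25A37 (mitoferrin-1), the iron importer known from red cell precursors, had levels of 7.07 and 7.34 in monoculture, 7.81 and 8.28 with T cells, and 7.93 and 7.98 with monocytes. All cocultures were above monoculture, and the difference of 0.79 ± 0.15 was the largest on the higher side (adjusted p = 0.0691). However, a second and dimmer SLC25A37 probe set differed by -0.04 ± 0.12 (adjusted p = 0.902), so that the probe sets of this gene disagree. SLC25A28 (mitoferrin-2), its widely expressed relative, differed by -0.24 ± 0.13. SLC25A32, a carrier of folate and FAD, was measured at 8.24 and 8.20 in monoculture, 7.81 and 7.65 with T cells, and 7.84 and 7.84 with monocytes (-0.43 ± 0.083, adjusted p = 0.0685). Its cocultures were all lower, with little spread.

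SLC25A51 is the importer of NAD and has a near-identical copy, SLC25A52, and pseudogenes, so that its signal may be shared. The probe set used differed by -0.30 ± 0.10 (adjusted p = 0.189 in limma), and a second, dimmer probe set differed by -0.67 ± 0.13 (adjusted p = 0.0712). In both, all cocultures were below monoculture. SLC25A16, linked to coenzyme A in the matrix, differed by 0.36 ± 0.12, with all cocultures above a wide monoculture pair (6.34 and 5.97). SLC25A26, the carrier of S-adenosylmethionine, had levels of 7.61 and 7.83 in monoculture, 7.49 and 8.01 with T cells, and 7.51 and 8.08 with monocytes, with overlapping groups, and differed by 0.06 ± 0.21.

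In the 4 carriers without a settled substrate, 0 were called in limma and 1 was lower at an unadjusted p under 0.05 (13.6% of all genes). This was SLC25A46, an outer membrane protein that takes part in mitochondrial shape and is mutated in an optic atrophy and neuropathy syndrome. Its levels were 7.989 and 7.997 in monoculture, 7.61 and 7.31 with T cells, and 7.40 and 7.58 with monocytes (-0.52 ± 0.11, adjusted p = 0.0838), without overlap. SLC25A43 had levels from 6.34 to 6.53 and differed by -0.0068 ± 0.086.

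T cell coculture replicate 1 weighed on these counts. When it was left out, 8 carriers passed the adjusted p over both cocultures in limma, namely SLC25A37 and SLC25A25 as higher and UCP2, SLC25A12, SLC25A46, SLC25A14, SLC25A32 and SLC25A15 as lower. Without this array also 2.01% of all probe sets were called higher and 5.19% lower, so that the background rose with the carriers.

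Each coculture was then compared with monoculture alone. These comparisons share the monoculture arrays, and their values are given side by side. With T cells, 0 of 49 carriers were called in limma and 6 were higher (12.2%) and 10 lower (20.4%) at an unadjusted p under 0.05. Over all probe sets 0.0% were called in either direction, and 6.16% of genes were higher and 11.4% lower at the unadjusted limit. With monocytes, 0 carriers were called higher and 1 lower (UCP2), 7 were higher (14.3%) and 10 lower (20.4%) at the unadjusted limit, beside a background of 0.229% called higher, 0.35% called lower, 7.68% higher and 12.2% lower at the unadjusted limit. The median difference over the carriers was 0.033 with T cells and 0.0051 with monocytes.

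SLC25A37 differed by 0.84 ± 0.18 with T cells and by 0.75 ± 0.18 with monocytes. SLC25A12 differed by -0.51 ± 0.12 with T cells and by -0.57 ± 0.12 with monocytes. SLC25A46 differed by -0.53 ± 0.13 and -0.50 ± 0.13, and SLC25A32 by -0.49 ± 0.095 and -0.38 ± 0.095. Between the cocultures these 4 genes differed by -0.09 ± 0.18, -0.05 ± 0.12, 0.03 ± 0.13 and 0.11 ± 0.095, and none passed the test. When T cell coculture replicate 1 was left out, the T cell comparison in limma called 3 carriers, UCP2 (-1.33, adjusted p = 0.0415), SLC25A37 (1.07, 0.0323) and SLC25A25 (0.70, 0.0426), beside 0.981% of all probe sets called higher and 3.32% called lower.

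**Figure D4:**
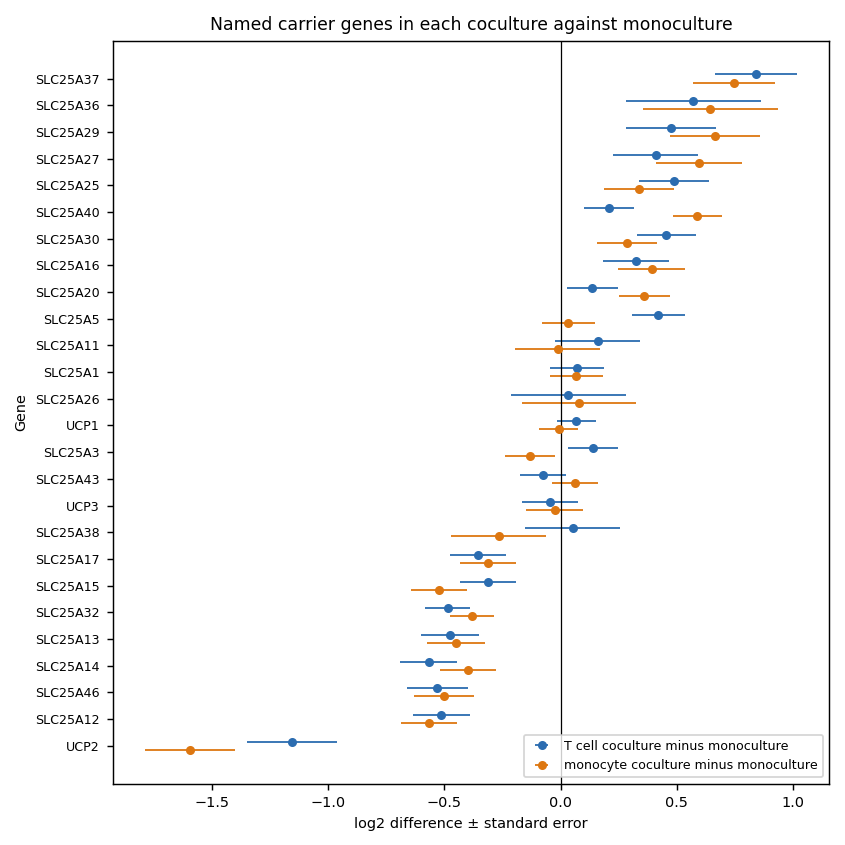
Log2 difference from monoculture (x axis) with its standard error for the 26 named carriers, in T cell coculture (blue) and monocyte coculture (orange). UCP2 is lowest in both, and SLC25A40 and SLC25A5 are the genes in which the cocultures are most apart beside UCP2.

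Monocyte coculture was also compared with T cell coculture directly. Of 49 carriers, 0 were called in limma in either direction (0.0% of all probe sets), and 1 was higher and 2 were lower at an unadjusted p under 0.05, where 3.53% and 3.84% of all genes were. The carrier that was higher was SLC25A40 (0.38 ± 0.11, unadjusted p = 0.012, adjusted p = 0.529). Those that were lower were SLC25A5 and SLC25A3 (-0.27 ± 0.11, unadjusted p = 0.045, adjusted p = 0.651). The median over the carriers was 0.0020. The intervals of single carriers were wide, for SLC25A37 from -0.52 to 0.34.

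The genes around the carriers were described from lists of other transporters, import factors, partner enzymes and regulators. Of 13 measured genes for carrier import, 1 was called lower in limma over both cocultures, 0 were higher and 6 were lower at an unadjusted p under 0.05, with a median of -0.27. Beside this stand 0.47% of all probe sets called lower, 7.82% of all genes higher and 13.6% lower at the unadjusted limit, and a median of 0.015 over all genes. The called gene was TIMM8B, a small TIM chaperone, with levels of 10.31 and 10.65 in monoculture, 9.64 and 9.39 with T cells, and 9.28 and 9.29 with monocytes. It fell by 1.08 ± 0.13 (adjusted p = 0.0439). A second and dimmer TIMM8B probe set differed by 0.32 ± 0.15 (adjusted p = 0.333), so that the direction rests on the probe set. TOMM70, the outer membrane receptor for carrier precursors, had levels of 7.47 and 7.62 in monoculture, 7.15 and 7.17 with T cells, and 7.08 and 7.07 with monocytes (-0.43 ± 0.08, adjusted p = 0.0664). The chaperones TIMM13 and TIMM10 differed by -0.48 ± 0.13 and -0.35 ± 0.093.

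Of 27 measured enzymes that use or feed the carried substrates, 1 rose and 1 fell in limma (0.248% and 0.47% of all probe sets). NNT, which makes NADPH in the matrix from the proton gradient, had levels of 7.75 and 7.69 in monoculture, 8.22 and 8.30 with T cells, and 8.45 and 8.32 with monocytes, and rose by 0.60 ± 0.08 (adjusted p = 0.0479). MAT2A makes the S-adenosylmethionine that SLC25A26 carries. Its levels were 10.08 and 10.05 in monoculture, 8.44 and 8.18 with T cells, and 8.45 and 8.52 with monocytes. MAT2A fell by 1.67 ± 0.10 (adjusted p = 0.0338), while SLC25A26 differed by 0.06. GOT2, the matrix transaminase of the malate-aspartate shuttle, differed by -0.47 ± 0.10 (adjusted p = 0.0851), beside the lower values of SLC25A12 and SLC25A13. The other shuttle genes did not lie lower, since GOT1 differed by 0.03, MDH1 by 0.08, MDH2 by 0.03 and SLC25A11 by 0.07, all with overlapping groups. MTHFD2, an enzyme of the folate cycle in the matrix, differed by -0.33 ± 0.08 (adjusted p = 0.0953), beside the lower values of SLC25A32. Other folate enzymes of the list lay on both sides. MTHFD1L differed by -0.28 ± 0.08, MTHFD1 by -0.53 ± 0.16 and SHMT2 by 0.10 ± 0.12, the last 2 with overlapping groups. At an unadjusted p under 0.05, 1 enzyme was higher and 6 were lower (7.82% and 13.6% of all genes), and the median was -0.094. As for UCP2, the calls of TIMM8B, NNT and MAT2A over both cocultures were lost without either monoculture array or either monocyte coculture array. So was every other call over both cocultures. In these fits TIMM8B ran from -1.25 to -0.91, NNT from 0.57 to 0.63 and MAT2A from -1.69 to -1.65. The call of NNT was also lost without T cell coculture replicate 2 (0.58). With an intensity trend the calls of NNT (0.0829) and TIMM8B (0.0611) were lost, with the replicate block that of NNT (0.0522), and with the mean of both probe sets that of TIMM8B (-0.38, 0.168).

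Of 24 other transporters of the mitochondrial membranes, 0 were called in limma over both cocultures, and 2 were higher and 4 lower at an unadjusted p under 0.05 (7.82% and 13.6% of all genes), with a median of -0.0068. VDAC3, a pore of the outer membrane, differed by -0.60 ± 0.09 (adjusted p = 0.0504). MICU2, a regulator of the calcium uniporter, differed by -0.57 ± 0.11, and the uniporter pore MCU by 0.38 ± 0.09. MTCH2, an outer membrane relative of the carriers, differed by -0.54 ± 0.12.

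Of 12 regulators of mitochondrial biogenesis, 0 were called in limma, 2 were higher and 4 were lower at an unadjusted p under 0.05 (7.82% and 13.6% of all genes), with a median of -0.23. MYC had levels of 10.03 and 10.12 in monoculture, 8.42 and 6.54 with T cells, and 6.71 and 6.38 with monocytes (-3.06 ± 0.48, adjusted p = 0.0540). T cell coculture replicate 1 was the coculture array nearest to monoculture for MYC, as it was for UCP2. It was also the nearest over all genes. Its median absolute difference from the monoculture mean was 0.11, against 0.14 to 0.16 on the other coculture arrays. TFAM, which packs and transcribes mitochondrial DNA, differed by -0.84 ± 0.13 (adjusted p = 0.0542), and the coactivator PPRC1 by -0.64 ± 0.15. PPARGC1A (PGC-1 alpha), the coactivator that drives UCP1 in brown fat, had levels of 5.51 and 5.90 in monoculture, 6.05 and 7.03 with T cells, and 7.01 and 7.40 with monocytes (1.17 ± 0.29, adjusted p = 0.106).

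**Figure D5:**
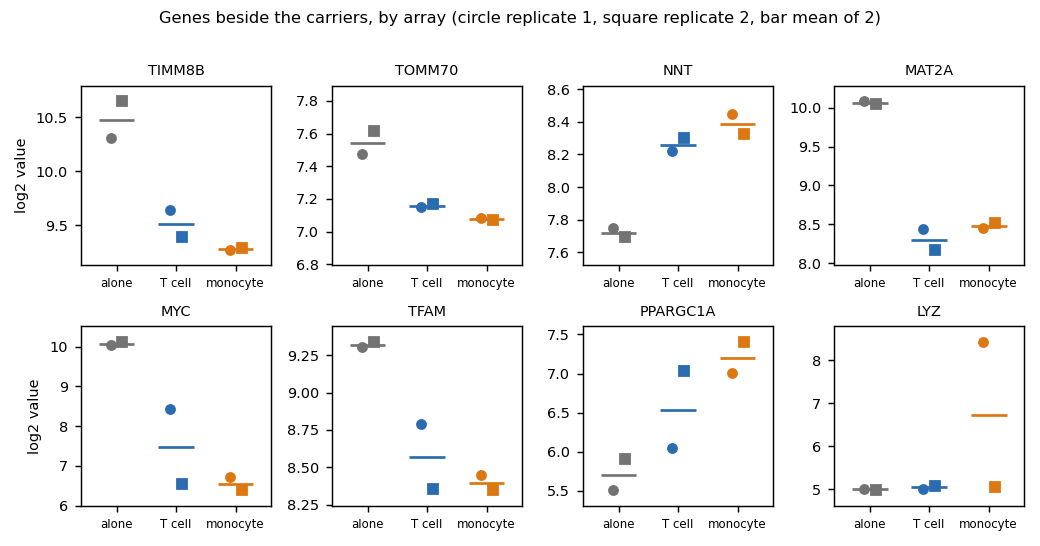
Log2 level (y axis, own scale per gene) on each array of 7 genes around the carriers and of the monocyte marker LYZ, for DEV cells cultured alone, with T cells or with monocytes (circle replicate 1, square replicate 2, bar mean of 2). TIMM8B, TOMM70, MAT2A, MYC and TFAM are lower in all cocultures, NNT and PPARGC1A are higher, and LYZ stands out only in monocyte coculture replicate 1.

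Finally, carrier promoters were searched on both strands for motifs of 3 regulators of mitochondrial genes, the E-box CACGTG bound by MYC and other factors, the NRF1 motif (GCGC, any base, then TGCGC) and the ETS motif CCGGAAGT bound by GABP. A promoter was found for 42 of the 49 carriers, and SLC25A2, SLC25A16, SLC25A30, SLC25A32, SLC25A35, SLC25A37 and SLC25A41 had no entry. The E-box was present in 7 of 42 carrier promoters (16.7%) and in 7.43% of 27305 promoters of the same length. The NRF1 motif was present in 5 (11.9%, beside 6.28%) and the ETS motif in 3 (7.14%, beside 4.44%). All carriers are protein-coding, but the 27305 promoters were not limited to protein-coding genes. The shares are therefore not those of like sets. The carriers with an E-box were SLC25A13, SLC25A31, SLC25A33, SLC25A36, SLC25A38, SLC25A46 and SLC25A51, and their differences lay on both sides of 0. SLC25A46 (chr5:110738757-110739056, plus strand) and SLC25A36 (chr3:140941586-140941885, plus strand) are shown because both hold an E-box while the first lay lower and the second higher in all cocultures. Neither was called (adjusted p = 0.0838 and 0.270 in limma). For SLC25A36, T cell coculture replicate 1 was barely above monoculture replicate 1 (7.55 against 7.52). The capitals mark the E-box and, in SLC25A46, 2 further ETS motifs on the opposite strand, which do not overlap it (RefSeq, GRCh38.p14, written 5′ to 3′ along the gene).
SLC25A46: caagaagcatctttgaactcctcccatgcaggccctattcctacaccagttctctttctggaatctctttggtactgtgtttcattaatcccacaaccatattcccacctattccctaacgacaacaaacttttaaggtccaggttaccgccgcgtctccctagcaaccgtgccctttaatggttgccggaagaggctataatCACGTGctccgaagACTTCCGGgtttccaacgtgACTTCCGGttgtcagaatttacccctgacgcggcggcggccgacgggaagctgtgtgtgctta
SLC25A36: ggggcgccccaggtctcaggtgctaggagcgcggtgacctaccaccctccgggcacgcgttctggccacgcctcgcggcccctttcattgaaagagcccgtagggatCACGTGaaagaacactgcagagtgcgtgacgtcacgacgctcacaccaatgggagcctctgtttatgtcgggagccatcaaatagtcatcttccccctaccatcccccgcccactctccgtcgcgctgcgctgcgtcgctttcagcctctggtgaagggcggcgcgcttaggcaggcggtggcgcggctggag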

How the data were processed

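RNA of DEV cells from monoculture, T cell coculture and monocyte coculture was amplified with the NUGEN Ovation Pico kit and hybridized onto Affymetrix Gene 1.0 arrays. The authors deposited 1 log2 value per probe set and array. The summarization and normalization method is not given in the sources used here. The values were taken over unfiltered. Array data hold no read depth, and precision is limited by the 6 arrays. Groups and replicate numbers came from the sample labels. Of 32321 probe sets, 19158 had 1 gene symbol in the platform annotation, 1388 had several and 11775 had none here. Genes were named only from probe sets with 1 symbol, and 2 pseudogene probe sets were left out.

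One mean per group was fitted to all probe sets with lmFit and eBayes of limma 3.58.1 (R 4.3.3), with 3 residual and 3.08 prior degrees of freedom. The 4 comparisons had Benjamini-Hochberg adjustment over all probe sets of each, and a probe set was called at an adjusted p under 0.05. Errors of differences are standard errors of this fit. The fit was tested on simulated data in which all probe sets had the same spread, which says nothing about unequal spreads in these arrays. In 13 alternatives the values were quantile normalized or median centred, the dimmest 40% of probe sets were left out, an intensity trend, a replicate block, only the arrays compared or the mean of a gene's probe sets was used, or each array was left out. The labels do not say whether replicate numbers pair the arrays, and the main fit did not treat them as pairs.

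Named were members called, UCP1 to UCP3 with relatives, the 8 largest differences each way over both cocultures, the 4 largest each way in the other comparisons and the 2 members of highest level per role group, in all 26. Of other lists, called genes and up to 4 with the smallest p were named. SLC25A4, SLC25A28, SLC25A33, SLC25A39, SLC25A44, SLC25A51, SLC25A5-AS1, GOT1, MDH1, MDH2, SHMT2, MTHFD1 and MTHFD1L were added after their values were seen. Members, lists and rules were chosen with earlier results of these data known. Promoters came from RefSeq (GRCh38.p14).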

Additional observations from a re-analysis of the deposited data

How the results depend on the processing

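The direction of UCP2 was kept under every alternative run in each of the 4 comparisons, with differences from -1.49 to -1.22 over both cocultures. The number of carriers called over both cocultures (1) was 0 with an intensity trend (UCP2 adjusted p = 0.0596 in limma) and ran from 0 to 8 when each array was left out. With T cells (0) it ran from 0 to 3 when each array was left out. With monocytes (1) it was 0 after quantile normalization (UCP2 adjusted p = 0.0537) and 0 with an intensity trend (0.0634), 2 (UCP2 and SLC25A37) with only the arrays compared, and 0 to 2 when each array was left out. With only the arrays compared, 326 probe sets were called higher and 841 lower with monocytes, beside 74 and 113 in the main fit. With an intensity trend, 0 probe sets were called in either direction with monocytes. The carrier counts with an array left out also moved with the calls over all probe sets. Over both cocultures the carrier count stayed at 1 after median centring and without the dimmest 40%, although more probe sets were called in both. Why the counts changed was not tested. In fits without 1 array of a group, the remaining array is assumed to vary like the other groups. The median carrier difference over both cocultures (0.024) was -0.0050 after quantile normalization, -0.038 after median centring and from -0.0051 to 0.034 when each array was left out. With T cells (0.033) it was -0.025 after centring and from 0.0031 to 0.048 with each array left out, and with monocytes (0.0051) it was -0.062 after centring.

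Members near 0 turned over both cocultures. After median centring UCP1 was at -0.032, SLC25A3 at -0.059 and SLC25A26 at -0.0063, and after quantile normalization SLC25A38 was at 0.031. With each array left out, UCP3 ran from -0.11 to 0.039, SLC25A11 from -0.039 to 0.19, SLC25A38 from -0.27 to 0.052, SLC25A3 from -0.054 to 0.062, SLC25A26 from -0.087 to 0.20 and SLC25A43 from -0.093 to 0.080. In monocyte against T cell coculture, SLC25A29 ran from -0.11 to 0.49, SLC25A27 from -0.015 to 0.39 and SLC25A38 from -0.63 to 0.0005. Of all values of named members under alternatives, 568 kept their direction and side of the threshold, 19 turned, 13 passed the threshold newly and 11 lost it. Over all probe sets, 80 higher and 152 lower calls became 90 and 112 after quantile normalization, 120 and 444 after centring, 246 and 510 without the dimmest 40%, and 17 and 38 with the trend. The causes were not tested.

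With the replicate number as a block, 1 carrier was called over both cocultures (UCP2, adjusted p = 0.0420 in limma), 0 with T cells, 1 with monocytes and 0 between the cocultures, and 110 probe sets were higher and 182 lower. Samples of the same number correlated in their deviations with 0.0268, -0.152 and 0.26, the last value between T cell and monocyte coculture. With so few arrays per group, these values cannot decide whether the numbers pair the samples.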
